A study of Mus musculus with 4 samples.

Results

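A set of 10 RNA-binding regulators of germ cell mRNA translation was followed in sorted mouse spermatocytes, namely *Dazl*, *Boll*, *Ddx4*, *Ddx25*, *Ybx2*, *Ybx3*, *Cpeb1*, *Pabpc2*, *Eif4g3* and *Celf1*. They were chosen by gene name for their known roles, but with earlier results of these data known. All 10 were found among the 24411 rows of each expression file. RNA was sequenced from GFP-positive testis cells collected at postnatal day 18, with 2 samples labelled *Zfp541*+/- as controls and 2 labelled *Zfp541* KO, called KO-labelled libraries hereafter. Values of a pair are given for sample 1 and then sample 2. All 4 samples came from males given as of mixed C57BL/6 and CBA strain. The study's methods instead place the knockout mice on C57BL/6 and call the knock-in mice congenic with it. All 4 samples carried *Rec8*-3xFLAG-HA-p2A-GFP, a knock-in allele that marks cells that make the meiotic cohesin REC8. One control testis was heterozygous and the other homozygous for the knock-in, without the labels saying which, whereas both KO testes were homozygous. The *Zfp541* KO allele is a CRISPR deletion, and the sorted cells are a mixture of meiotic prophase stages. The values are TPM, an abundance unit that accounts for transcript length, so that levels of different genes can be set side by side.

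The growing spermatocyte makes many mRNAs long before it uses them. RNA-binding proteins package these messages into storage particles, hold back their translation, and later release them by lengthening the poly(A) tail or by recruiting the translation initiation machinery. DAZ proteins, CPEB proteins and CELF1 bind short elements near the end of mRNAs, Y-box proteins coat and store them, DEAD-box helicases remodel them in germ granules, and poly(A)-binding proteins and eIF4G scaffolds join them to the ribosome.

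Promoter sequences are shown for 6 genes that separated the groups, so that starts of genes on either side can be set beside each other. Of these, 4 were higher and 2 lower in both KO-labelled libraries than in both controls, as were 38.6% and 12.1% of the 14512 genes tested. Each line gives the 100 bases just before an annotated start of the gene (RefSeq, GRCm38.p6, the assembly also called mm10). It is written 5′ to 3′ on the gene's strand. The starts used for *Cpeb1*, *Ddx4* and *Celf1* lie inside the spans given for these genes further below, not at their outer ends. Distances are counted from the starts used. Capitals mark the E box CACGTG, the CCAAT box, the TATA box (letters TATAAA) and the GC box (letters GGGCGG), each sought on both strands, and neighbouring GC boxes may overlap each other.
Cpeb1: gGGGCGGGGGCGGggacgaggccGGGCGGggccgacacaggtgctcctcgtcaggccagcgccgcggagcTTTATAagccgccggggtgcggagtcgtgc
Dazl: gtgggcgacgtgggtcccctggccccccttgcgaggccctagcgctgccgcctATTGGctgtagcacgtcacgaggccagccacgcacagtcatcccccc
Ddx4: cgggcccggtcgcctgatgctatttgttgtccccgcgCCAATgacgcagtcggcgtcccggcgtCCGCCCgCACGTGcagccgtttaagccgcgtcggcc
Celf1: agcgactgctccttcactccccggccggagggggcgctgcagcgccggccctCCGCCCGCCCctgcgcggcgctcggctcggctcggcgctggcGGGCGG
Ddx25: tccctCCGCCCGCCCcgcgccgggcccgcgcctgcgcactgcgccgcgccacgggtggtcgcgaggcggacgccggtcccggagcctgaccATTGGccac
Ybx3: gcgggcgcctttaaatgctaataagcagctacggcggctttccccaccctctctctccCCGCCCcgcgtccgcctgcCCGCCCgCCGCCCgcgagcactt
These stretches lie at chr7:81454759-81454858 (minus strand) for *Cpeb1*, chr17:50293621-50293720 (minus) for *Dazl*, chr13:112652311-112652410 (minus) for *Ddx4*, chr2:90940297-90940396 (plus) for *Celf1*, chr9:35558471-35558570 (minus) for *Ddx25* and chr6:131388451-131388550 (minus) for *Ybx3*. Over windows of 300 bases, from 250 before to 50 after a start, promoters were found for 9 of the 10 genes, all but *Pabpc2*, in 12 windows. These 12 windows held 13 to 41 CpG dinucleotides, against a median of 7 over all 32851 windows. The E box occurred in 7.15% of all windows and in those of 4 of the 9 genes, at 29 bases before the start of *Ddx4*, 9 before one start of *Boll*, and 25 and 38 bases after the starts of *Cpeb1* and *Ddx25*. Of the genes with an E box, *Ddx4* and *Cpeb1* were higher in the KO-labelled libraries, *Ddx25* was lower, and the groups overlapped for *Boll*. The TATA box, in 13.6% of all windows, occurred in *Cpeb1* alone among the 9 genes, 30 bases before the start used. The CCAAT box was in 37.4% of all windows and in 5 of the 9 genes, and the GC box in 35.7% of all windows and in 7 of the 9. The shares of all windows count windows, whereas a gene with several windows counted if any of them held the box. The figures are thus not on the same footing. A match describes the letters and is not a measured binding site.

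The 10 genes were well expressed in the sorted cells. The *Ybx2* message was the most abundant, with a mean over the 4 libraries of 1422 TPM, above 99.6% of the 14512 genes tested. *Dazl* (773 TPM), *Ybx3* (721 TPM) and *Ddx4* (651 TPM) came next. *Ddx25* followed with 313 TPM, *Boll* with 188 TPM and *Eif4g3* with 140 TPM. *Cpeb1* (99.6 TPM), *Celf1* (98.9 TPM) and *Pabpc2* (86.0 TPM) had the lowest means, and even *Pabpc2* lay above 81.6% of genes tested. The ranges over the 4 libraries overlapped for each pair of neighbours in this order. Within single libraries some neighbours still kept their order throughout. In every library *Ddx4* was above *Ddx25*, *Ddx25* above *Boll*, and *Boll* above *Eif4g3*. *Pabpc2* varied most, by 27.7 times between its lowest and highest library, and *Celf1* least, by 1.97 times. Summed over the 10 genes, the level was 6036 and 3469 TPM in controls 1 and 2 and 3944 and 4519 TPM in KO-labelled libraries 1 and 2.

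**Figure D1:**
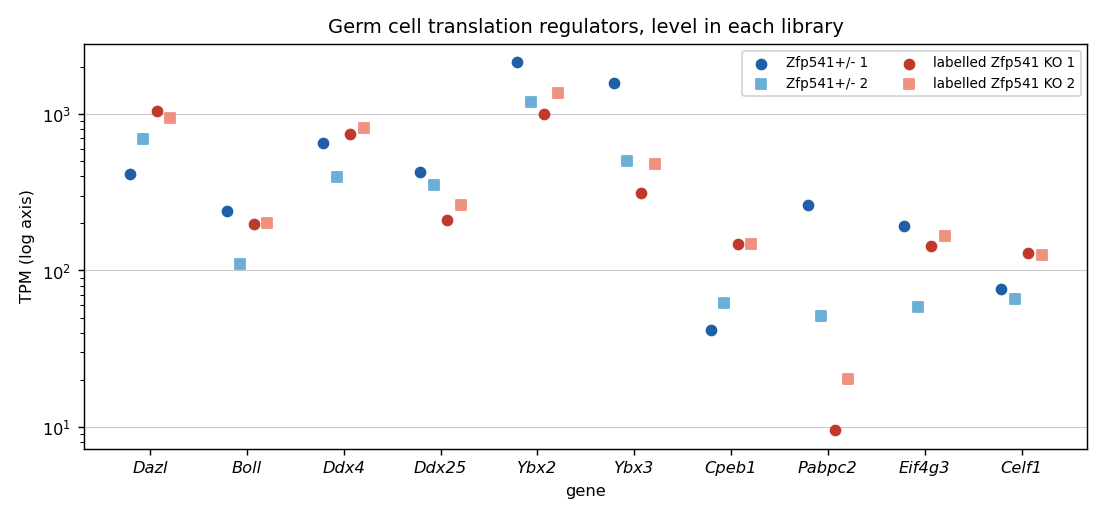
Level of each of the 10 genes in TPM (log axis) in the 4 libraries, with 1 point per library. Both KO-labelled libraries lie above both controls for *Cpeb1*, *Celf1*, *Dazl* and *Ddx4*, and below both for *Pabpc2*, *Ybx3* and *Ddx25*, while control 2 sits well below control 1 for *Eif4g3*, *Pabpc2* and *Ybx3*.

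The libraries differed in ways that touch these results, and the genotypes rest on labels alone. *Zfp541* itself had 112 and 72.2 TPM in the control pair and 136 and 151 TPM in the KO-labelled pair, so the message of the targeted gene was not lower in them, and each direction below follows the label. The TPM are per gene and do not separate deleted exons from retained ones. *Rec8*, the gene of the sorting allele, had 7.05 and 27.9 TPM in the control pair and 27.7 and 19.4 TPM in the KO-labelled pair. Markers of meiotic prophase were present in all libraries, the 9 leptotene and zygotene markers found in the files summing to 930 to 2075 TPM and the 10 pachytene markers to 1337 to 5404 TPM. The 10 round spermatid markers summed to 51.3 to 144 TPM, with 2 of them under 1 TPM in every library. Control 2 had nearly none of the Leydig cell and macrophage RNA that the other libraries held. The 6 Leydig cell markers summed to 18.0 TPM in it, against 2910 TPM in control 1 and 332 and 504 TPM in the KO-labelled libraries, and the 6 macrophage markers to 21.8 TPM, against 2083, 1696 and 1260 TPM. The 5 red blood cell markers ranged from 20.3 TPM in control 2 to 280 TPM in KO-labelled library 2, where *Hba-a2* alone had 244 TPM. The other 4 summed to 71.5 and 20.3 TPM in the control pair and 29.7 and 36.5 TPM in the KO-labelled pair. The 10 spermatogonial markers summed to 332 and 897 TPM in the control pair and 707 and 611 TPM in the KO-labelled pair. Without *Uchl1*, the most abundant, the other 9 summed to 206 and 338 TPM against 434 and 386 TPM, so control 2 was no longer the highest. The 8 Sertoli cell markers lay between 503 and 814 TPM throughout. Pachytene markers were also lower in control 2 (2472 TPM) than in control 1 (5404 TPM). In RNA from bulk cells, fewer cells of a type and less RNA per cell cannot be told apart.

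The comparison of the 2 KO-labelled libraries with the 2 controls asked whether the regulators of stored mRNA differ in message level at this age. Of the 10 genes, 4 were higher in both KO-labelled libraries than in both controls (*Cpeb1*, *Dazl*, *Celf1*, *Ddx4*), 3 were lower in both (*Pabpc2*, *Ybx3*, *Ddx25*), and for 3 the groups overlapped (*Boll*, *Ybx2*, *Eif4g3*). Over all genes tested, 38.6% were higher and 12.1% lower in this sense, 50.7% in all, so the share of higher genes was that of the background, and the share of lower genes was above it by a margin that was not tested. None of the 10 passed an FDR of 0.05 with limma on log2(TPM + 1), as was true of all 14512 genes tested (0.0%). Their adjusted p lay between 0.310 and 0.766. The study itself reported genes that differed between these genotypes at an FDR of 0.05, by another procedure that used RSEM. The absence of calls here is that of limma on the TPM values, and why it differs from the study's result was not tested. At an unadjusted p under 0.05, limma gave 2 of the 10 genes higher (*Cpeb1*, *Celf1*) and 2 lower (*Pabpc2*, *Ddx25*), beside 10.7% of all genes higher and 3.73% lower. The median log2 fold change was 0.41 over the 10 genes and 0.28 over all genes tested. Median-ratio scaling took the median of all genes to -0.004 and that of the 10 genes to 0.083, and left 2 of the 10 higher (*Cpeb1*, *Celf1*) and 4 lower (*Pabpc2*, *Ybx3*, *Ddx25* and now *Ybx2*), beside 23.1% and 22.3% of all genes. After quantile normalization 28.2% of all genes were higher and 18.7% lower, with the same 4 of the 10 higher and 2 lower, the groups then overlapping for *Ybx3*. The calls rested on the pair of controls. Without control 1, 7 of the 10 genes passed in limma (adjusted p of 0.00917 to 0.0479), as did 6985 of all genes, and without control 2, 6 of the 10 (adjusted p of 0.0224 to 0.0412) and 4123 of all. Groups then did not overlap for 6 higher and 3 lower of the 10 without control 1, beside 9556 and 3630 of all 14512 genes (65.8% were higher), and for 4 higher and 6 lower without control 2, beside 52.9% and 36.0% of all genes. Such a fit takes its spread from the KO-labelled pair and assumes that the lone control varies likewise.

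**Figure D2:**
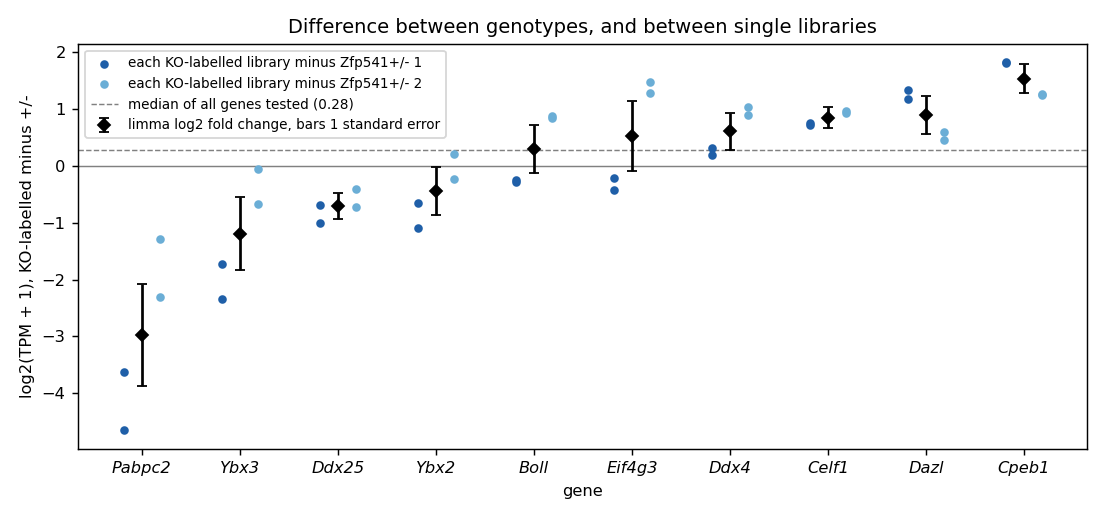
Difference in log2(TPM + 1) between the KO-labelled libraries and the controls for each gene. Black diamonds are limma log2 fold changes with bars of 1 standard error, small points are single KO-labelled libraries minus a single control, and the dashed line is the median of all genes tested. The points against controls 1 and 2 fall on opposite sides of 0 for *Boll* and *Eif4g3*.

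*Dazl*, the DAZ-family protein that keeps germ cells in their identity and activates translation, had 417 and 690 TPM in the control pair. The KO-labelled pair had 1047 and 939 TPM. Control 2 was the closer to them, and the log2 difference from single controls ranged from 0.44 to 1.33. The log2 fold change was 0.89 by limma, with a standard error of 0.33 and an adjusted p of 0.349, and it was 0.52 without control 1 and 1.25 without control 2. After median-ratio scaling the value was 0.56 and the groups overlapped. *Dazl* lies on chromosome 17 from 50279393 to 50293620.

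*Boll*, the DAZ-family member needed for spermatid development, had 241 and 110 TPM in the control pair and 198 and 202 TPM in the KO-labelled pair. The KO-labelled values thus lay between those of the controls. By limma the difference was 0.29 on the log2 scale, with a standard error of 0.42 and an adjusted p of 0.766. Its sign turned, to -0.034 with median-ratio scaling and to -0.27 without control 2, whereas it was 0.85 without control 1. *Boll* lies on chromosome 1 from 55243566 to 55363789.

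*Cpeb1*, which binds the cytoplasmic polyadenylation element and is needed for the synaptonemal complex messages *Sycp1* and *Sycp3*, showed the widest gap among the genes that were higher. It had 41.4 and 61.6 TPM in the control pair and 147 and 148 TPM in the KO-labelled pair. The KO-labelled values were thus nearly equal and both well above the controls. The log2 fold change was 1.53 by limma, with a standard error of 0.26 and an adjusted p of 0.310, or 2.87-fold in the means, and it lay between 1.21 and 1.81 under all alternatives run. The gene spans positions 81347026 to 81458001 of chromosome 7.

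*Ddx4* encodes the VASA helicase, a mark of the germline found in germ granules. It had 653 and 397 TPM in the control pair and 741 and 812 TPM in the KO-labelled pair. Control 1 lay close to the KO-labelled libraries, only 0.18 and 0.31 below them on the log2 scale. The log2 fold change of 0.61 by limma, with a standard error of 0.32 and an adjusted p of 0.442, was 0.28 after median-ratio scaling, where the groups overlapped. It was 0.25 without control 2 and 0.96 without control 1. *Ddx4* lies on chromosome 13 from 112598333 to 112652633.

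*Ddx25*, the gonadotropin-regulated testicular helicase that carries spermatid messages into the cytoplasm, had 426 and 349 TPM in the control pair. The KO-labelled pair had 211 and 264 TPM. Each group was tight for this gene, and the 4 log2 differences between single libraries lay between -1.01 and -0.40. By limma the difference was -0.70 on the log2 scale, with a standard error of 0.23 and an adjusted p of 0.324. It was -0.56 without control 1, -0.545 without KO-labelled library 1, -0.85 without control 2 and -1.03 after median-ratio scaling. *Ddx25* lies on chromosome 9 from 35541848 to 35558470.

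*Ybx2* (MSY2), which coats stored mRNAs, had 2137 and 1185 TPM in the control pair and 1004 and 1362 TPM in the KO-labelled pair. Control 1 was the highest, and control 2 lay between the KO-labelled libraries. The log2 fold change was -0.44 by limma, with a standard error of 0.42 and an adjusted p of 0.636. It was -0.77 with median-ratio scaling, where both KO-labelled libraries were below both controls, and -0.02 without control 1. *Ybx2* lies on chromosome 11 from 69935805 to 69941604.

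*Ybx3*, the Y-box protein also known as MSY4, had 1588 and 499 TPM in the control pair and 314 and 482 TPM in the KO-labelled pair. Control 1 stood alone, and control 2 was only 0.052 above KO-labelled library 2 on the log2 scale. Its log2 fold change of -1.19 by limma, with a standard error of 0.64 and an adjusted p of 0.443, became -0.36 without control 1 and -2.03 without control 2. *Ybx3* lies on chromosome 6 from 131364858 to 131388450.

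*Pabpc2*, a testis poly(A)-binding protein, had the widest difference of the 10 genes. It had 263 and 51.0 TPM in the control pair and 9.51 and 20.4 TPM in the KO-labelled pair. Both KO-labelled values were below both controls, but the controls differed from each other by 5.16 times. By limma the difference was -2.97 on the log2 scale, with a standard error of 0.90 and an adjusted p of 0.319. It was -4.14 without control 2 and -1.80 without control 1. The longest annotated transcript of *Pabpc2* has 1 exon and 2586 bases, and none of its 75-base words, the length of a read, occurs exactly in a transcript of another gene in GENCODE. The same was true of the other 9 genes, so their reads could be told from those of their relatives where they match without error.

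*Eif4g3*, the initiation factor scaffold needed for exit from meiotic prophase, had 193 and 58.9 TPM in the control pair and 143 and 165 TPM in the KO-labelled pair. As for *Boll*, the controls lay on either side of the KO-labelled libraries. Its log2 fold change of 0.52 by limma, with a standard error of 0.61 and an adjusted p of 0.705, was 1.37 without control 1 and turned to -0.33 without control 2. *Eif4g3* lies on chromosome 4 from 137991779 to 138207086.

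*Celf1* encodes a protein that binds GU-rich mRNA and acts in splicing, decay and translation. It had 76.0 and 65.4 TPM in the control pair and 129 and 125 TPM in the KO-labelled pair. The controls were closer to each other here than for any other of the 10 genes. The 4 differences between a KO-labelled library and a control lay between 0.71 and 0.97 on the log2 scale. The log2 fold change was 0.84 by limma, with a standard error of 0.19 and an adjusted p of 0.310. It was 0.73 without control 2, and with median-ratio scaling it was 0.52 and the groups still did not overlap. *Celf1* lies on chromosome 2 from 90940259 to 91019497.

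The gap between the controls was wider than that between the KO-labelled libraries in 9 of the 10 genes, and in 85.1% of all genes tested. Of the 10 genes, 8 were higher in control 1 than in control 2, the others being *Dazl* and *Cpeb1*. The gap between controls exceeded 1 on the log2 scale in 4 genes, with 2.34 for *Pabpc2*, 1.70 for *Eif4g3*, 1.67 for *Ybx3* and 1.13 for *Boll*. The stage markers also differed between libraries. Leptotene and zygotene markers summed to 930 and 1382 TPM in controls 1 and 2 and to 2075 and 2004 TPM in the KO-labelled libraries. *Dazl* had the same order of libraries, and *Cpeb1* shared only that control 1 was lowest and control 2 next. Of the 9 markers tested, 6 were higher in both KO-labelled libraries and none lower, beside 38.6% and 12.1% of all genes. Pachytene markers summed to 5404 and 2472 TPM in the control pair and 1337 and 2017 TPM in the KO-labelled pair. Of these 10, 7 were lower and 1 higher, beside the same shares of all genes. *Pabpc2*, *Ybx3* and *Ddx25* had the order of libraries of the pachytene sum, control 1 highest and KO-labelled library 1 lowest. That sum was mostly *Ldhc*, which is also among the client messages. The other 9 pachytene markers summed to 1745 and 653 TPM in the control pair and 569 and 787 TPM in the KO-labelled pair, so that without *Ldhc* KO-labelled library 2 lay above control 2 and the order was no longer that of the 3 genes. The part of these stages, and of the Leydig cell and macrophage RNA that was low in control 2, in the differences of the 10 genes was not tested.

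Ratios of related genes within a library hardly depend on how the library was scaled, and 8 such pairs were compared. *Ddx25* relative to *Ddx4* separated the groups, with a log2 ratio of -0.62 and -0.19 in the controls and -1.81 and -1.62 in the KO-labelled libraries. The difference was -1.31, the lower of the helicases being *Ddx25* in all 4 libraries. *Pabpc2* relative to the general poly(A)-binding protein gene *Pabpc1* was at -3.43 and -4.95 in the controls and at -7.69 and -6.91 in the KO-labelled libraries, a difference of -3.12. *Ybx2* relative to *Ybx3* was at 0.43 and 1.25 in the controls and at 1.67 and 1.5 in the KO-labelled libraries, a difference of 0.75 that was 0.34 without control 1. These ratios did not overlap between the groups, nor did that of *Celf1* to *Celf2*, at 1.89 and 2.30 in the controls and 1.70 and 1.5 in the KO-labelled libraries, a difference of -0.50 that was -0.29 without control 2. The other 4 ratios overlapped. For *Boll* to *Dazl* control 1 stood apart at -0.78, with control 2 at -2.64 and the KO-labelled libraries at -2.40 and -2.21. For *Cpeb1* to *Cpeb2* control 1 was at -0.61 and the other libraries at 0.80 to 1.77. *Eif4g3* to *Eif4g1* differed by -0.053 and *Ybx2* to *Ybx1* by 0.16 between the groups. With 2 libraries a group, the two-sided exact permutation test cannot give a p under 0.33. It gave that value for the 4 pairs that separated the groups, with an adjusted p of 0.667 over the 8 pairs.

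**Figure D3:**
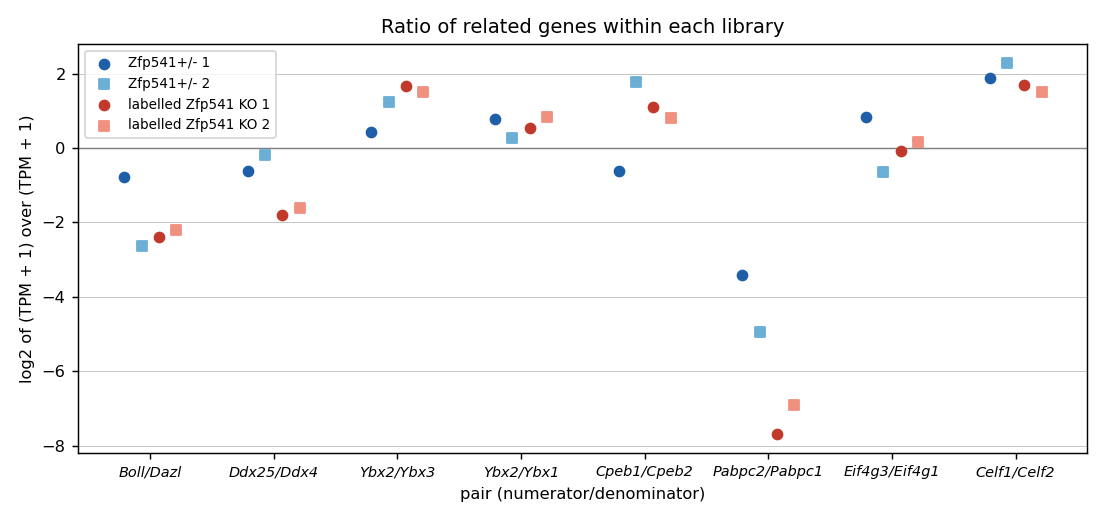
Log2 ratio of (TPM + 1) between related genes within each library, with 1 point per library. *Ddx25*/*Ddx4* and *Pabpc2*/*Pabpc1* are lower, and *Ybx2*/*Ybx3* higher, in both KO-labelled libraries than in both controls, and control 1 stands apart for *Boll*/*Dazl* and *Cpeb1*/*Cpeb2*.

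The make-up of each family told the members' share of the messages of that kind. *Ybx2* held 43.0% and 44.3% of Y-box TPM in the control pair and 49.9% and 52.1% in the KO-labelled pair. *Ybx3* held 31.9% in control 1 and 15.6% to 18.6% in the other 3 libraries. The summed Y-box level was 4970 TPM in control 1 and 2012 to 2678 TPM elsewhere, so control 1 alone carried the excess. *Pabpc1* took 84.0% and 92.5% of cytoplasmic PABP TPM in the control pair and 96.5% and 96.6% in the KO-labelled pair. *Pabpc2* had the opposite order at 7.79% and 2.94% against 0.422% and 0.765%, and the other testis form *Pabpc6*, also with 1 exon in its longest transcript, was at 7.47% and 2.36% against 1.15% and 1.11%. *Pabpc1* shares 11.2% of its 75-base words with transcripts of other genes, so its level is less certain. *Cpeb1* made up 30.8% of CPEB TPM in control 1 and 54.2% to 65.7% in the other libraries, and CPEB messages summed to 135 and 93.8 TPM in the control pair and 254 and 274 TPM in the KO-labelled pair. *Eif4g3* was 31.9% and 14.6% of eIF4G TPM in the control pair and 21.2% and 23.9% in the KO-labelled pair. *Celf1* kept 68.7% to 71.5% of CELF TPM in all 4 libraries, while *Dazl* was 63.3% of *Dazl* plus *Boll* in control 1 and 82.3% to 86.3% elsewhere.

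**Figure D4:**
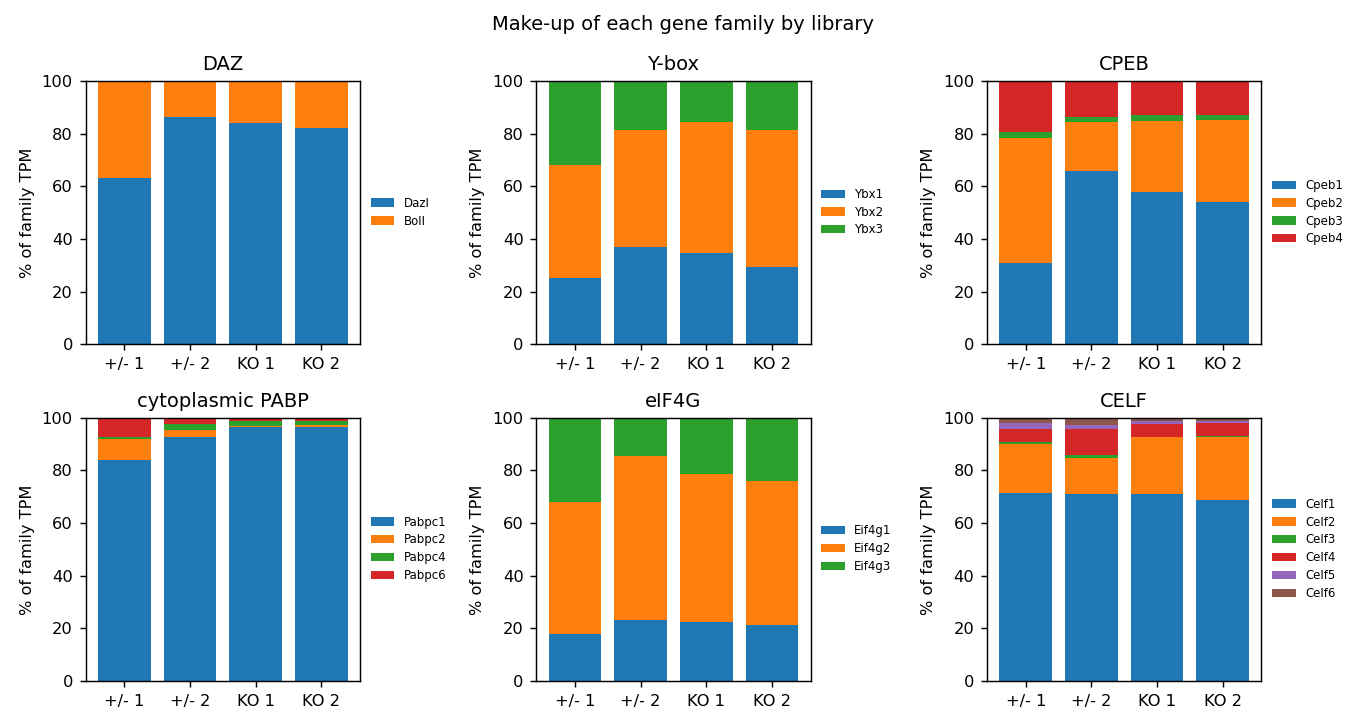
Share of each gene in the summed TPM of its family, in percent, for the 4 libraries (+/- 1 and 2 are the controls, KO 1 and 2 the KO-labelled libraries). *Celf1* lies between 68.7% and 71.5% of its family, whereas control 1 has a larger share of *Boll*, *Ybx3*, *Cpeb2*, *Pabpc2* and *Eif4g3* than the other libraries.

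Other genes of translational control were taken from 6 lists of 87 genes, of which 77 were tested. None passed an FDR of 0.05 in limma. At an unadjusted p under 0.05 in limma there were 25 higher and 0 lower, beside 10.7% and 3.73% of all genes tested. Of the 77, 55 were higher in both KO-labelled libraries than in both controls (71.4%, against 38.6% of all genes tested). Another 5 were lower (6.49%, against 12.1%) and 17 overlapped. The 5 were *Ybx1*, *Papolb*, *Pabpc6*, *Aurka* and *Eif4e2*, the last 2 being named after their values were seen. Median-ratio scaling gave 37 higher and 8 lower (48.1% and 10.4%, beside 23.1% and 22.3% of all genes). Quantile normalization gave 49 and 7 (63.6% and 9.09%, beside 28.2% and 18.7%). The median log2 fold change over the 77 genes was 0.54 and stayed above that of all genes, at 0.22 against -0.004 with median-ratio scaling and 0.46 against 0.090 with quantile normalization. The 10 genes described above were thus divided, whereas most of the broader lists lay on the higher side. No test of this difference was made, and both the 10 genes and the lists were chosen with earlier results of these data known.

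Among storage and ribonucleoprotein genes, 14 of 17 were higher and 1 lower (82.4% and 5.88%, beside 38.6% and 12.1% of all genes). *Patl1*, a component of P-bodies that links storage to decapping, had 33.4 and 27.7 TPM in the control pair and 102 and 101 TPM in the KO-labelled pair (1.71 on the log2 scale by limma, with a standard error of 0.21 and an adjusted p of 0.310). *Caprin2* had a log2 fold change of 1.05. The gene that was lower was *Ybx1*, the general Y-box gene, at 1245 and 993 TPM in the control pair and 694 and 769 TPM in the KO-labelled pair, and 13.3% of its 75-base words occur in other transcripts. All 3 Y-box genes were thus lower in the mean of the KO-labelled libraries, with *Ybx2* overlapping.

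Of 22 genes of other mRNA repressors and activators, 16 were higher (72.7%) and 0 lower, beside 38.6% and 12.1% of all genes. Median-ratio scaling gave 8 higher (36.4%) and 2 lower (9.09%), beside 23.1% and 22.3%. *Elavl2*, a neuronal-type Hu protein, had 11.2 and 19.6 TPM in the control pair and 46.3 and 42.4 TPM in the KO-labelled pair. *Lin28b*, a regulator of let-7 microRNA and translation, was at 22.0 and 10.2 TPM against 38.9 and 44.5 TPM. Genes of CPEB and polyadenylation followed, of which 11 of 15 were higher (73.3%) and 2 lower (13.3%), *Papolb* and *Aurka*. After median-ratio scaling 6 were higher (40.0%) and 3 lower (20.0%). *Cpeb2* had 63.9 and 17.4 TPM in the control pair and 68.2 and 84.7 TPM in the KO-labelled pair, and *Papolb*, the testis poly(A) polymerase, was lower at 123 and 34.7 TPM against 22.6 and 31.2 TPM.

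Among PABP genes and their partners, 5 of 7 were higher (71.4%) and 1, *Pabpc6*, lower (14.3%), beside 38.6% and 12.1% of all genes. With median-ratio scaling 2 were higher (28.6%) and 1 lower (14.3%), beside 23.1% and 22.3%. *Pabpc6* had 252 and 41.0 TPM in the control pair and 25.9 and 29.7 TPM in the KO-labelled pair, a pattern across libraries close to that of *Papolb* and *Pabpc2* in that control 1 was far the highest. *Paip2b*, an inhibitor of poly(A)-binding protein, was on the other side, at 75.0 and 107 TPM against 187 and 167 TPM. Of 12 eIF4F genes 8 were higher (66.7%) and 1, *Eif4e2*, lower (8.33%). *Eif4ebp3*, a repressor of the cap-binding protein, had 30.2 and 37.4 TPM in the control pair and 70.2 and 60.8 TPM in the KO-labelled pair, and *Eif4b*, an activator of the eIF4A helicase, was at 168 and 155 TPM against 282 and 306 TPM. *Eif4g1*, the paralogue of *Eif4g3*, was at 107 and 92.7 TPM against 150 and 148 TPM. Within the CELF family *Celf2* alone of 4 tested was higher, at 19.8 and 12.5 TPM against 39.0 and 43.8 TPM.

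**Figure D5:**
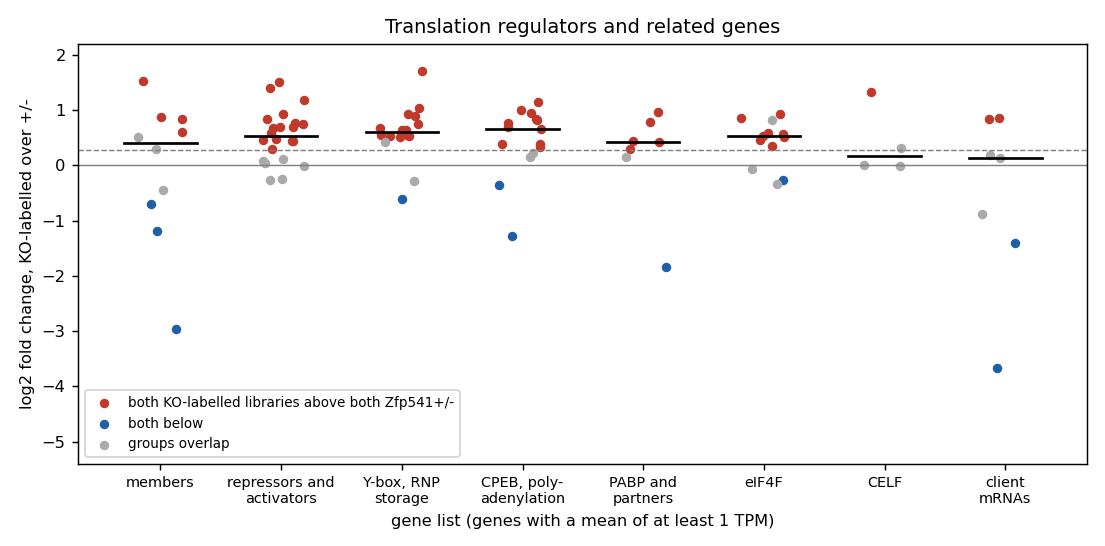
Log2 fold change (limma, KO-labelled libraries over controls) of each gene with a mean of at least 1 TPM in the 10 members and in 7 lists, 1 point per gene. Black bars are list medians and the dashed line is the median of all genes tested (0.28). Most points of the storage and polyadenylation lists are of genes higher in both KO-labelled libraries, as were 38.6% of all genes.

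The last list held 12 messages that these proteins are known to store or activate, of which 7 were tested. The CPEB1 clients were both higher. *Sycp3* had 1108 and 1263 TPM in the control pair and 2093 and 2196 TPM in the KO-labelled pair, and *Sycp1* had 449 and 626 TPM against 895 and 1005 TPM. *Pgk2*, the sperm glycolytic enzyme whose message is stored for spermatids, was lower at 79.0 and 18.4 TPM against 1.59 and 2.71 TPM (-3.67 on the log2 scale by limma, with a standard error of 0.79 and an adjusted p of 0.310). *Ldhc*, the testis lactate dehydrogenase, was at 3659 and 1819 TPM against 768 and 1230 TPM. The list had 2 genes higher and 2 lower of the 7 (28.6% each), beside 38.6% and 12.1% of all genes. Both counts held with either scaling, beside 23.1% and 22.3% with median-ratio scaling and 28.2% and 18.7% with quantile normalization. *Hspa2*, whose protein depends on *Eif4g3*, had 1346 and 761 TPM in the control pair and 1000 and 1223 TPM in the KO-labelled pair, with the controls on either side as for *Eif4g3*. The DAZL client *Tex19.1* had 39.2 and 130 TPM in the control pair and 85.8 and 77.0 TPM in the KO-labelled pair. The spermatid clients of the Y-box proteins and DDX25 were close to absent, with *Prm1*, *Prm2*, *Tnp1*, *Smcp* and *Akap4* at no more than 1.48 TPM in any library. *Tnp2* was at 7.59 TPM in control 1, listed at 0 in control 2, and at 0.46 and 0.75 TPM in the KO-labelled libraries.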

How the data were processed

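Sorted GFP-positive cells were sequenced as single-end 75 nt reads. Per the labels and the study's methods, the authors trimmed reads with Trim Galore 0.5.0 (cutadapt 1.16), aligned them to UCSC mm10 with STAR 2.6.0a and used RSEM 1.3.1. The deposited TPM, 1 value a gene and library, sum to 1000000 in each library and keep no depth, so no counting error can be given. Replicates are separate testes by the design text.

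The 14512 genes averaging 1 TPM or more were fitted as log2(TPM + 1) by genotype, using limma 3.58.1 in R 4.3.3. The prior variance followed mean expression, and p-values were adjusted by Benjamini-Hochberg over all genes. A fold change on this scale understates that of low genes. Ratios were tested by exact permutation. The procedure was tested on simulated data, whose set changes were all larger than those of the members other than *Pabpc2*. Recovery of smaller changes was not tested. Alternatives covered pseudocount, filter, scaling, variance trend, replicate block and each left-out library. The members and lists were chosen with earlier results of these data known. All members, their paired relatives, the client messages and, per list, up to 2 genes with the widest change between groups that do not overlap were named. *Tent2* was read under its older name *Papd4* and *Sympk* under its corrected spelling, and *Meiosin* was not analysed here. Transcript words came from GENCODE M21.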

Additional observations from a re-analysis of the deposited data

How the results depend on the processing

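No member passed an FDR of 0.05 in limma under the other pseudocounts, filters, scalings or variance model, or with replicate number as a block (0 genes in all). This block rests on a number alone, since no source pairs the samples, and the deviations of same-numbered samples correlated at -0.16. With crossed numbers as the block, a setting chosen after seeing the data, 87 genes passed, 7 higher and 80 lower, *Pabpc2* among them (adjusted p = 0.0329). Leaving out 1 library gave 0 to 6985 genes, and 0 to 51 of the genes in the 6 related lists. The high counts, 6985 without control 1 and 4123 without control 2, came from fits in which the lone control was assumed to vary like the KO-labelled pair. Members higher in both KO-labelled libraries numbered 2 with median-ratio scaling (23.1% of all genes) and 4 to 6 with a library left out (42.9% to 65.8% of all genes). Members lower numbered 2 with quantile normalization (18.7% of all genes) and 3 to 6 with a library left out (15.6% to 36.0%). The median over the members ranged from -0.30 without control 2, a change of sign, to 0.69. *Boll* turned to -0.034 with median-ratio scaling and -0.27 without control 2, where *Eif4g3* turned to -0.33, and the 2 genes reached 0.85 and 1.37 without control 1. Among ratios, *Boll*/*Dazl* turned to 0.33, *Cpeb1*/*Cpeb2* to -0.82 and *Eif4g3*/*Eif4g1* to 0.69 without control 1, *Ybx2*/*Ybx1* turned to -0.10 without control 2, and *Eif4g3*/*Eif4g1* to 0.061 without KO-labelled library 1. With a library left out these ranged from -1.52 to 0.33, -0.82 to 1.56, -0.80 to 0.69 and -0.10 to 0.42, and the ratios that separated the groups from 0.34 to 1.157 for *Ybx2*/*Ybx3*, -0.70 to -0.29 for *Celf1*/*Celf2*, -1.53 to -1.09 for *Ddx25*/*Ddx4* and -3.88 to -2.36 for *Pabpc2*/*Pabpc1*. The causes were not tested.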
